A study of Mus musculus with 9 samples.

Results

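Zfp36, Zfp36l1, Zfp36l2, Zc3h12a, Zc3h12d, Btg1, Btg2, Rc3h1 and Rc3h2 encode proteins that shorten the life of mRNAs in T cells. They were chosen by symbol as the ZFP36, Regnase, BTG and Roquin genes of the GENCODE M21 annotation, and are 9 of the 45321 genes with estimated counts in RNA-seq of mouse CD4+ T cells. All 9 passed the filter on low counts, and 14011 genes were tested in all. The cells came from spleens of C57BL/6 mice, a common inbred strain, and were purified without antibody bound to the CD4+ cells themselves. The study compared a small-molecule inhibitor of NFAT:AP-1, the complex of a calcium-activated factor with a factor activated by MAP kinases, with its solvent.

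The 4 groups held 9 libraries. Cells of the stimulated Compound 10 group (3 libraries) were kept for 1 h with 12.5 µM Compound 10 and then stimulated for 2 h with PMA (10 nM), a phorbol ester that turns on protein kinase C, together with ionomycin (1 µM), a calcium ionophore. The stimulated vehicle group (2 libraries) had DMSO in place of the compound and the same PMA and ionomycin. The unstimulated Compound 10 group (2 libraries) had the 1 h pretreatment with 12.5 µM Compound 10 and no PMA or ionomycin. The unstimulated vehicle group (2 libraries) had the 1 h pretreatment with DMSO alone. No time after the pretreatment is recorded for the unstimulated groups. Time in culture and with the compound may therefore differ between stimulated and unstimulated cells, and such a difference cannot be told apart from stimulation. PMA and ionomycin bypass the T cell receptor, so the stimulated groups are a model of signalling downstream of it. The labels do not state that the replicates are separate animals, so each p-value rests on the spread among these libraries, which could be technical.

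As background, ZFP36 (tristetraprolin) and its relatives ZFP36L1 and ZFP36L2 are zinc finger proteins that bind AU-rich elements in the 3′ UTRs of cytokine mRNAs and recruit the CCR4-NOT deadenylase, which removes the poly(A) tail. ZC3H12A (Regnase-1) and ZC3H12D are endonuclease-domain proteins, and ZC3H12A cuts stem-loops in mRNAs such as those of Il2, Il6 and Rel. RC3H1 and RC3H2 (the Roquins) bind similar stem-loops, for instance in Icos and Tnfrsf4. BTG1 and BTG2 bind the CAF1 deadenylases and speed up general deadenylation, and in mouse T cells they are known for keeping resting cells quiescent.

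Btg2 and Zfp36 were the members with higher mRNA under Compound 10 in stimulated cells, by 3.35-fold and 2.17-fold. Zfp36 was also 3.05-fold higher under Compound 10 in unstimulated cells, while Btg2 did not pass there and Zc3h12d fell. Stimulation raised Zfp36, Zfp36l1, Zfp36l2, Zc3h12a and Btg1 with and without the compound, and it raised Btg2 under Compound 10. In vehicle the value of Btg2 was near the threshold and passed it in some alternatives. The difference between the treatments in the response of Btg2 was tested and passed, as it did for 144 genes in all.

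AU-rich heptamers are shown here because the ZFP36 genes carry the element that their own proteins bind. The heptamer TATTTAT was counted in the GENCODE M21 3′ UTR of 1 transcript of each member. This was the transcript with the highest mean estimated counts over the 9 libraries, among those with an annotated 3′ UTR. Zfp36, Zfp36l1 and Zfp36l2 each had 3 copies, in 3′ UTRs of 774, 1835 and 1822 bases. Of 3′ UTRs within 20% of the same length, 1.01%, 3.46% and 3.39% had at least as many. Btg2 had 1 copy in 2199 bases, and 41.2% of 3′ UTRs of similar length had at least 1. Rc3h1 had 2 and Rc3h2 had 3 in much longer 3′ UTRs of 7181 and 5331 bases. No copy was found in Zc3h12a, Zc3h12d or Btg1. Among 11303 tested genes with an annotated 3′ UTR, taken in the same way, 27.4% had the heptamer. Each stretch of 25 bases below runs 5′ to 3′ on the transcript strand, with the heptamer in capitals.
Zfp36 site 1: tgggcccttTATTTATgacgacttt
Zfp36 site 2: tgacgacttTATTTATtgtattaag
Zfp36 site 3: attttatagTATTTATatatattgg
Zfp36l1 site 1: atcaaaacgTATTTATtgccaaact
Zfp36l1 site 2: ttttgttcaTATTTATcgggatgac
Zfp36l1 site 3: ctgttggatTATTTATtttagaaat
Zfp36l2 site 1: tatttaactTATTTATtatcttgtg
Zfp36l2 site 2: tccatactgTATTTATcgagtatga
Zfp36l2 site 3: tgtatgtaaTATTTATttcattaat
Btg2 site 1: atgaagagcTATTTATacatgtttt
The first sites of Zfp36 lie close together, so that the end of site 1 is the start of site 2 as printed. A match is a description of the letters and not of binding.

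Promoters are shown because the compound is directed at NFAT:AP-1 and members moved in different ways. RefSeq promoters (build GRCm38.p6) were found for 8 members and were searched on both strands over the 250 bases before the start. The motifs were GGAAA (the NFAT core), TGANTCA (AP-1), TGACGTCA (cAMP response element), GCGTGGGCG (EGR), and the NF-kB site and the CArG box of serum response factor, both by name. An NF-kB site can also hold the NFAT core. Of 32851 promoters, 55.6% held the NFAT core, 6.75% the AP-1 site, 1.55% the cAMP response element, 0.536% the EGR site, 7.25% the NF-kB site and 1.47% the CArG box. The NFAT core occurred 4 times in the window of Zfp36l1, once each in those of Btg1, Rc3h1 and Rc3h2, and in none of those of Zfp36, Zc3h12a, Zc3h12d and Btg2. An AP-1 site was present in Zfp36l1 and Rc3h1, a CArG box in Zfp36 and a cAMP response element in Btg2. The window of Zfp36 lies within an exon of its longer GENCODE M21 transcript. These letters say nothing of which factors were bound. Capitals mark the motif in each window of 30 bases, given 5′ to 3′ on the gene's own strand, which is the minus strand for Zfp36 (chr7:28379267-28379296), Zfp36l1 (chr12:80113124-80113153) and Btg2, and the plus strand for Rc3h1 (chr1:160906267-160906296).
Zfp36 CArG box: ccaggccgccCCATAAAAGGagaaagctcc
Zfp36l1 AP-1 site: gaccgcatggcTGATTCAacctcagtgtca
Rc3h1 AP-1 site: gttggggccggTGACTCAgagctttcctcc
The whole window of Btg2 (chr1:134079156-134079405, minus strand), the member with the largest difference under Compound 10 in stimulated cells, is given with its cAMP response element in capitals.
Btg2 promoter: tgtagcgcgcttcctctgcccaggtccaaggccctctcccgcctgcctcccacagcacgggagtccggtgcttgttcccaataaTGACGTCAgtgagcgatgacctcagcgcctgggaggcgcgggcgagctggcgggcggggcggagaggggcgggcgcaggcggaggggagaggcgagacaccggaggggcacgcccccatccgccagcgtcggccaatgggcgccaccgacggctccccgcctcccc

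Total estimated counts per library were between 10669821 and 21852830. Ribosomal RNA, nuclear and mitochondrial together, took 9.08% to 15.9% of counts in stimulated Compound 10 libraries and 10.3% and 19.3% in stimulated vehicle. It took 11.4% and 13.2% in unstimulated Compound 10, and 11.8% and 33.2% in unstimulated vehicle. Nuclear ribosomal RNA alone took, in the same order, 1.78% to 9.66%, 3.575% and 13.8%, 3.11% and 6.665%, and 4.72% and 26.3%. Replicate 2 of each vehicle group held the larger share, and results that lose their call without those libraries are named below. All 8 markers of CD4 T cells were detected, with summed levels of 2165 to 2203 CPM (counts scaled to library size by TMM) in stimulated Compound 10, 1634 to 2069 in stimulated vehicle, 1283 to 1448 in unstimulated Compound 10 and 779 to 885 in unstimulated vehicle libraries. The summed CD8 markers stayed at or under 7.31 CPM and the B cell markers at or under 58.2 CPM in every library. Those of monocytes, neutrophils and erythroid cells with platelets each stayed at or under 14.6 CPM. Natural killer cell markers summed to 17.7 to 23.8 CPM in stimulated Compound 10 and 5.90 to 7.91 CPM in stimulated vehicle, and to 10.2 to 12.2 CPM in unstimulated Compound 10 and 4.26 to 5.91 CPM in unstimulated vehicle. All 4 of these markers that were tested, of 5 listed, were higher under Compound 10 in stimulated cells, and 1 was higher in unstimulated cells. Of the 8 CD4 T cell markers, 5 were higher and 1 lower under Compound 10 in stimulated cells. In unstimulated cells 5 were higher and 0 lower. Of all genes, 11.7% were higher and 11.4% lower in stimulated cells, and 4.45% were higher and 2.91% lower in unstimulated cells. The part of these shifts in the members' values was not tested. In RNA from bulk cells, fewer cells of a type and less RNA per cell cannot be told apart.

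Levels were ordered per transcript length, in TPM, which allow genes to be set side by side. In stimulated Compound 10 cells Zfp36l1 averaged 702 ± 277 TPM and Btg1 676 ± 136 TPM (SD, n = 3), and their libraries overlapped. Btg2 at 362 TPM and Zfp36 at 325 TPM came next and overlapped too. In stimulated vehicle cells Zfp36l1 stood alone at the top with 1063 ± 370 TPM (SD, n = 2), followed by Btg1 at 579, Zfp36 at 156 and Btg2 at 112 TPM, with no overlap between neighbours. In unstimulated Compound 10 cells the order was Btg1 at 504, Zfp36 at 188, Zfp36l1 at 91.0 and Btg2 at 81.0 TPM, the last pair overlapping. In unstimulated vehicle cells it was Btg1 at 309.6, Btg2 at 94.4, Zfp36l1 at 74.9 and Zfp36 at 61.1 TPM, where Btg1 was clear of Btg2 while Zfp36l1 overlapped with both Btg2 and Zfp36. Zfp36l2, Zc3h12a and Rc3h1 lay between 6.12 and 75.6 TPM on average in every group. Rc3h2 and Zc3h12d were the lowest in all 4 groups, between 1.05 and 3.12 TPM, and overlapped in stimulated Compound 10 and in unstimulated vehicle cells.

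**Figure D1:**
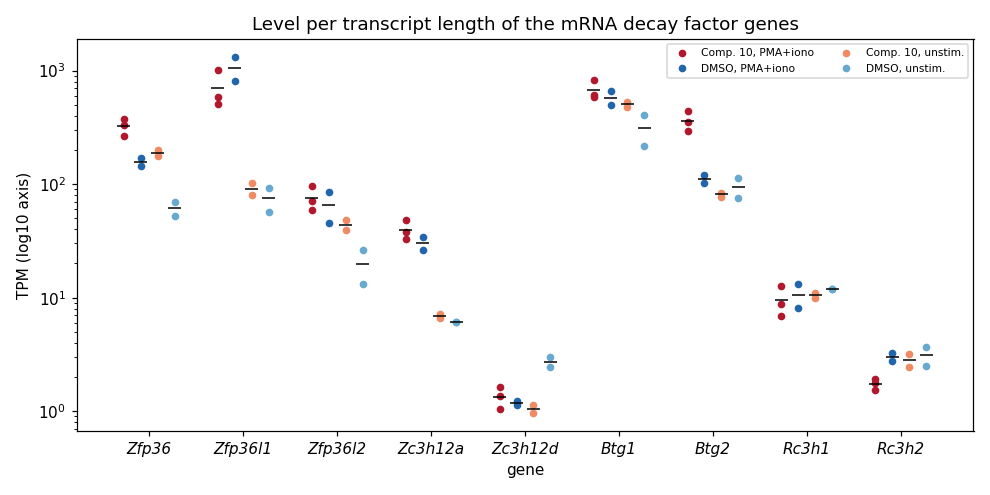
TPM (log10 axis) of each member in every library, by group, with a bar at the group mean. Zfp36l1 and Btg1 lie at the top in stimulated cells, and Zc3h12d and Rc3h2 lie at the bottom in all groups.

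Across the members, 2 of 9 passed an adjusted p of 0.05 for Compound 10 in stimulated cells, both higher, where 23.1% of all tested genes passed, 11.7% higher and 11.4% lower. In unstimulated cells 1 was higher and 1 lower, where 7.36% of genes passed, 4.45% higher and 2.91% lower. With stimulation 6 were higher and 0 lower under Compound 10, where 21.8% of genes passed (11.0% higher and 10.8% lower), and 5 were higher and 1 lower in vehicle, where 28.1% passed (14.4% higher and 13.8% lower). For the difference between the compound's effect in stimulated and in unstimulated cells, 1 member passed, in the positive direction, where 1.03% of genes did, 0.421% positive and 0.607% negative. The median log2 fold change of the 9 members was 0.27 for the compound in stimulated cells and 0.17 in unstimulated cells, against 0.00 and -0.01 over all genes. For stimulation it was 1.16 under Compound 10 and 1.24 in vehicle, against 0.00 and -0.05. The members' share for the compound in stimulated cells is close to that of all genes. The stimulated libraries of each treatment are shared between these comparisons, as are the unstimulated ones.

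**Figure D2:**
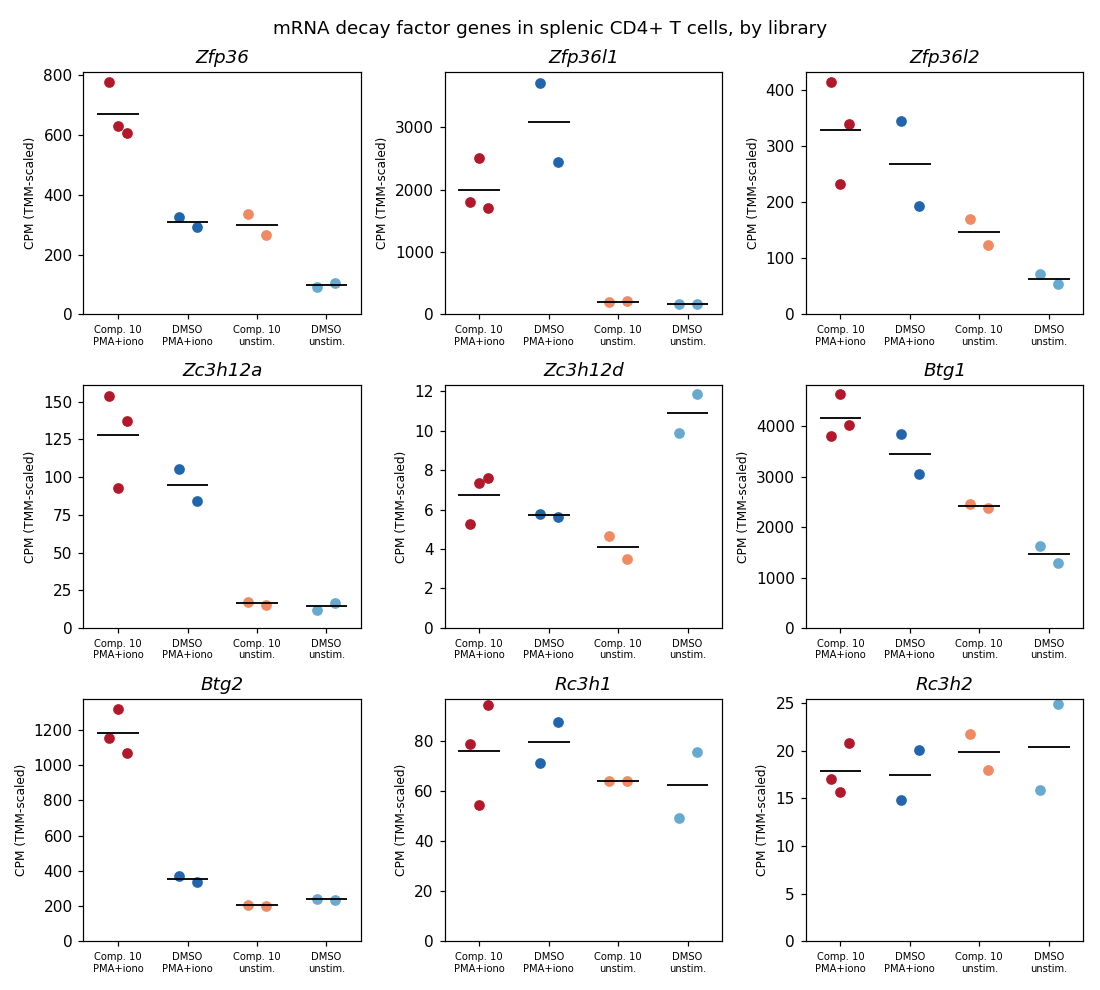
CPM (TMM-scaled) of the 9 members in each library, with a bar at the group mean and linear axes from 0. Zfp36 and Btg2 are highest in the 3 stimulated Compound 10 libraries, and Zc3h12d is highest in the 2 unstimulated vehicle libraries.

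Zfp36 (chr7:28376784-28380253, minus strand) had 777, 628 and 607 CPM in stimulated Compound 10 libraries, against 325 and 292 CPM in stimulated vehicle. Unstimulated libraries had 334 and 265 CPM with Compound 10, against 91.8 and 105 CPM in vehicle. Compound 10 libraries were above the vehicle libraries in both states with no overlap, and unstimulated Compound 10 cells were at about the level of stimulated vehicle cells. The log2 fold change for the compound was 1.12 (SE 0.20, adjusted p = 0.00186) in stimulated and 1.61 (SE 0.22, adjusted p = 0.00142) in unstimulated cells. The difference between these effects, -0.49 (SE 0.29), did not pass (adjusted p = 0.485). Without the vehicle libraries richest in ribosomal RNA the effects were 1.05 and 1.71, still past the threshold. Stimulation gave 1.16 (SE 0.20, adjusted p = 0.00143) under Compound 10 and 1.65 (SE 0.22, adjusted p = 0.00017) in vehicle, with no overlap in either.

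Zfp36l1 (chr12:80107754-80113013, minus strand) showed the largest stimulation response of the members. Stimulated Compound 10 libraries had 1796, 2504 and 1712 CPM, against 3713 and 2453 CPM in stimulated vehicle. Unstimulated libraries had 199.8 and 208 CPM with the compound, against 175 and 164 CPM in vehicle. All stimulated libraries were above all unstimulated ones, while 1 stimulated Compound 10 library lay above the lower vehicle library. Stimulation raised Zfp36l1 by 3.30 (SE 0.28, adjusted p = 7.96e-06) on the log2 scale under Compound 10 and by 4.18 (SE 0.30, adjusted p = 1.76e-06) in vehicle. The difference between these responses, -0.89 (SE 0.355), did not pass (adjusted p = 0.262). The compound's log2 fold change in stimulated cells was -0.62 (SE 0.24, adjusted p = 0.0795), short of the threshold. It passed without replicate 2 of stimulated Compound 10, at -0.84 (adjusted p = 0.0183), and in DESeq2, at -0.64 (adjusted p = 0.024). It also passed without a filter on low counts, at -0.65 (adjusted p = 0.0463). Without replicate 2 of stimulated vehicle, which leaves 1 library in that group, it was -0.89. In unstimulated cells the compound's log2 fold change was 0.27 (SE 0.26, adjusted p = 0.606).

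Zfp36l2 (chr17:84183931-84187947, minus strand) had 414, 231 and 339 CPM in stimulated Compound 10 libraries, against 344 and 193 CPM in stimulated vehicle, and the groups overlapped. It had 170.1 and 124 CPM in unstimulated Compound 10, against 72.7 and 54.7 CPM in unstimulated vehicle, and there the groups did not overlap. The log2 fold change in unstimulated cells, 1.21 (SE 0.33), stayed just short of the threshold (adjusted p = 0.0503). It passed without 1 stimulated library at a time, for either stimulated vehicle library (adjusted p = 0.0319 each) and for replicates 1 and 2 of stimulated Compound 10 (adjusted p = 0.0447 and 0.0217). It also passed in DESeq2 (adjusted p = 0.00323), without a filter (3.59e-05), with a stricter filter (0.0432), with upper-quartile scaling (0.043), among the unstimulated groups alone (0.00677), without ribosomal RNA and mitochondrial genes (0.0433) and with protein-coding transcripts only (0.0262), at log2 fold changes of 1.19 to 1.24. It did not pass without any 1 of the 4 unstimulated libraries (adjusted p = 0.0913 to 0.259). Stimulation raised Zfp36l2 by 1.16 (SE 0.31, adjusted p = 0.0198) under Compound 10 and by 2.08 (SE 0.34, adjusted p = 0.000997) in vehicle. The difference between these responses, -0.91 (SE 0.44), did not pass (adjusted p = 0.373). The call under the compound was lost without replicate 2 of unstimulated Compound 10 (0.95, adjusted p = 0.161) and without replicate 1 or 3 of stimulated Compound 10 (0.96 and 1.14, adjusted p = 0.0532 and 0.055). In stimulated cells the compound's log2 fold change of 0.29 (adjusted p = 0.547) turned to -0.07 without replicate 2 of stimulated vehicle.

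The make-up of the ZFP36 family, as each gene's percent of the 3 genes' summed TPM, differed between groups. Zfp36 made up 30.3 ± 6.06% (SD, n = 3) in stimulated Compound 10 cells and 12.6 ± 2.75% (SD, n = 2) in stimulated vehicle cells. In unstimulated cells it made up 58.2 ± 3.71% with Compound 10 and 39.9 ± 4.23% in vehicle (SD, n = 2 each). The summed TPM of the family was 1102 ± 290 and 1285 ± 416 in the stimulated groups, with and without the compound, and the libraries overlapped. At rest the sums were 323 ± 6.55 TPM with Compound 10 and 156 ± 45.9 TPM in vehicle, without overlap. The vehicle sums were 188 TPM in replicate 1 and 123 TPM in replicate 2, the library richest in ribosomal RNA. TPM are not adjusted for that RNA, so sums of different groups are compared only roughly. These shares are given without a test.

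Zc3h12a (chr4:125118423-125127840, minus strand) had 154, 93.1 and 137 CPM in stimulated Compound 10 libraries, against 105 and 84.1 CPM in stimulated vehicle. Unstimulated libraries had 17.0 and 15.6 CPM with Compound 10, against 12.1 and 16.7 CPM in vehicle. The compound groups overlapped with vehicle in both states, and stimulated libraries were above all unstimulated ones. Stimulation raised this Regnase by 2.98 (SE 0.26, adjusted p = 9.3e-06) under Compound 10 and by 2.72 (SE 0.26, adjusted p = 1.76e-05) in vehicle on the log2 scale. The compound's log2 fold change was 0.43 (SE 0.23, adjusted p = 0.199) in stimulated cells, and 0.59 (adjusted p = 0.0389) without replicate 2 of stimulated Compound 10. It was 0.17 (SE 0.26, adjusted p = 0.75) in unstimulated cells.

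Zc3h12d (chr10:7832470-7870396, plus strand) was scarce, with 63.4 to 184 estimated counts per library. It had 5.29, 7.36 and 7.59 CPM in stimulated Compound 10 libraries, against 5.80 and 5.64 CPM in stimulated vehicle, and these overlapped. It had 4.68 and 3.49 CPM in unstimulated Compound 10, against 9.87 and 11.9 CPM in unstimulated vehicle, where every vehicle library was higher. The log2 fold change at rest was -1.42 (SE 0.29, adjusted p = 0.013). The call was lost without replicate 2 of unstimulated vehicle, the library richest in ribosomal RNA (-1.28, adjusted p = 0.094), and without replicate 1 or 2 of unstimulated Compound 10 (-1.64 and -1.22, adjusted p = 0.0605 and 0.114). Stimulation in vehicle gave -0.93 (SE 0.28, adjusted p = 0.0265), a call lost without any 1 of the 4 vehicle libraries (-1.05, -0.79, -0.95 and -0.91, adjusted p from 0.0543 to 0.152). Under Compound 10 stimulation gave 0.73 (SE 0.27, adjusted p = 0.0708), and 0.88 (adjusted p = 0.0435) without replicate 1 of stimulated Compound 10. The difference between the compound's effects, 1.65 (SE 0.39), did not pass (adjusted p = 0.0673), but it passed without a filter on low counts (1.59, adjusted p = 0.0363) and in DESeq2 (1.64, adjusted p = 0.0177).

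Btg2 (chr1:134075170-134079120, minus strand) had 1153, 1318 and 1068 CPM in stimulated Compound 10 libraries, against 369.8 and 335 CPM in stimulated vehicle. Unstimulated libraries had 209 and 201 CPM with Compound 10, against 242 and 237 CPM in vehicle. All 3 stimulated Compound 10 libraries were far above the other 6, which lay within 201 to 369.8 CPM. In stimulated cells the log2 fold change for the compound was 1.74 (SE 0.19, adjusted p = 0.000118), and it ranked 95 by p among the 14011 genes. In unstimulated cells it was -0.23 (SE 0.20, adjusted p = 0.548). The difference between these effects was 1.97 (SE 0.27, adjusted p = 0.0062), ranked 20 by p. It kept its size but not its call without replicate 1 of unstimulated Compound 10 (2.00, adjusted p = 0.0539), and without the 2 vehicle libraries richest in ribosomal RNA (1.91, adjusted p = 0.079). Stimulation raised Btg2 by 2.53 (SE 0.20, adjusted p = 4.95e-06) under Compound 10. In vehicle the value was 0.56 (SE 0.20, adjusted p = 0.0532), short of the threshold. It passed without replicate 2 of stimulated Compound 10 (0.61, adjusted p = 0.0201), in DESeq2 (0.58, adjusted p = 0.00884), with RLE scaling (0.58, adjusted p = 0.0474), without ribosomal RNA and mitochondrial genes (0.57, adjusted p = 0.0456) and with protein-coding transcripts only (0.61, adjusted p = 0.0303).

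Btg1 (chr10:96617006-96622809, plus strand), the other anti-proliferative deadenylation cofactor, was the more abundant of the pair in every library. It had 3810, 4644 and 4025 CPM in stimulated Compound 10 libraries, against 3840 and 3056 CPM in stimulated vehicle, with overlap. It had 2450 and 2370 CPM in unstimulated Compound 10, against 1628 and 1291 CPM in unstimulated vehicle, without overlap. The compound's log2 fold change was 0.27 (SE 0.22, adjusted p = 0.427) in stimulated and 0.72 (SE 0.24, adjusted p = 0.0881) in unstimulated cells, the second passing in DESeq2 (adjusted p = 0.00865). Stimulation raised Btg1 by 0.79 (SE 0.22, adjusted p = 0.0234) under Compound 10 and by 1.24 (SE 0.24, adjusted p = 0.00231) in vehicle. The difference between these responses, -0.45 (SE 0.32), did not pass (adjusted p = 0.584). The call under the compound was lost without replicate 1 or 2 of unstimulated Compound 10 (0.81 and 0.76, adjusted p = 0.13 and 0.156) and without replicate 3 of stimulated Compound 10 (0.81, adjusted p = 0.0568). Btg2 made up 36.3%, 34.8% and 33.4% of the summed TPM of Btg1 and Btg2 in stimulated Compound 10 libraries, against 15.4% and 17.2% in stimulated vehicle. In unstimulated libraries it made up 13.9% and 13.8% with Compound 10, against 22.01% and 25.8% in vehicle. The compound libraries thus had the higher share when stimulated and the lower share at rest, with no overlap in either state. These shares were not tested.

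Rc3h1 (chr1:160906418-160974978, plus strand) had 78.5, 54.3 and 94.4 CPM in stimulated Compound 10 libraries, against 71.0 and 87.6 CPM in stimulated vehicle. Unstimulated libraries had 64.0 and 64.0 CPM with Compound 10, against 49.2 and 75.5 CPM in vehicle. Rc3h2 (chr2:37370069-37422903, minus strand) had 17.1, 15.7 and 20.8 CPM in stimulated Compound 10 libraries, against 14.8 and 20.1 CPM in stimulated vehicle. Unstimulated libraries had 21.7 and 17.99 CPM with Compound 10, against 15.9 and 24.9 CPM in vehicle. All groups overlapped for both Roquin genes in the 4 pairwise comparisons, and no test of either passed in the model of all libraries (adjusted p from 0.372 to 0.961). For the compound in stimulated cells the log2 fold change was -0.07 (SE 0.24) for Rc3h1 and 0.03 (SE 0.24) for Rc3h2. With the deposited effective lengths as an offset the value of Rc3h2 was -0.71 (adjusted p = 0.0353), and its TPM values were 1.54, 1.93 and 1.77 in stimulated Compound 10 libraries, against 3.26 and 2.76 in stimulated vehicle.

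**Figure D3:**
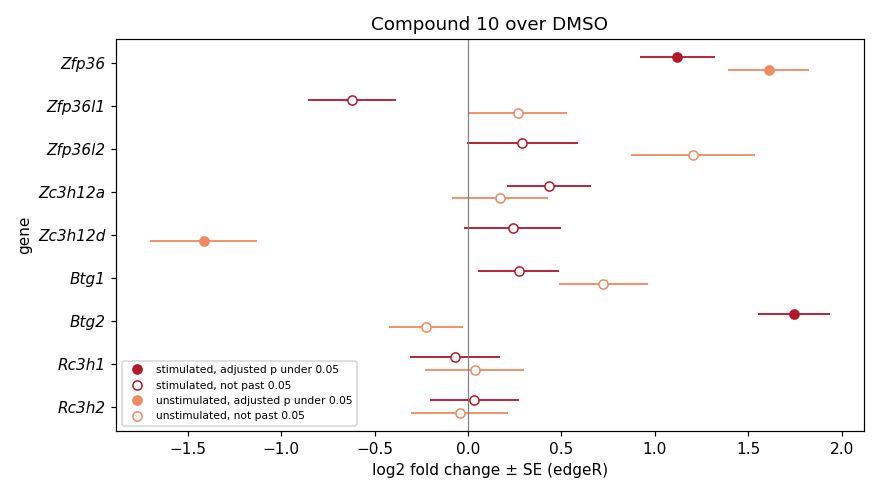
Log2 fold change of Compound 10 over DMSO (± SE, edgeR) for each member in stimulated and unstimulated cells, with filled points where the adjusted p was under 0.05. Zfp36 lies to the right in both states, and Btg2 only in stimulated cells.

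**Figure D4:**
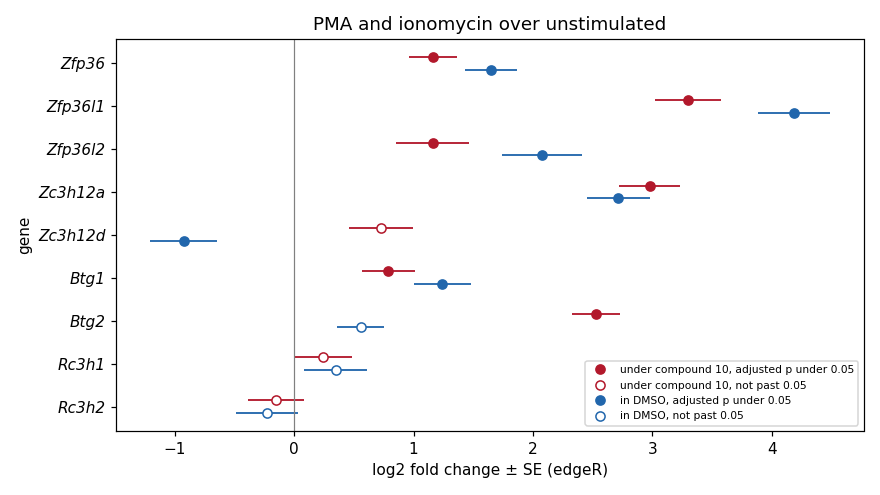
Log2 fold change of PMA and ionomycin over unstimulated (± SE, edgeR) for each member under Compound 10 and in DMSO, with filled points where the adjusted p was under 0.05. Zfp36l1 has the largest value in both, and the Btg2 points lie furthest apart.

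The machinery that the members recruit was followed in lists of genes. Of 14 subunits of CCR4-NOT and other deadenylases, 2 were higher and 3 lower under Compound 10 in stimulated cells, where 11.7% of all genes were higher and 11.4% lower. Their median log2 fold change was -0.06 against 0.00 over all genes. Cnot2, a scaffold subunit, had 26.3, 26.9 and 27.2 CPM in stimulated Compound 10 libraries, against 55.0 and 62.8 CPM in stimulated vehicle. These did not overlap, and the log2 fold change was -1.14 (SE 0.15, adjusted p = 0.000366). Cnot1, the central scaffold, fell in both states, by 0.94 (adjusted p = 0.00374) in stimulated and by 0.96 (adjusted p = 0.0177) in unstimulated cells on the log2 scale. Parn, a poly(A)-specific ribonuclease, rose by 1.34 (adjusted p = 0.00574) in stimulated cells, and the other called subunits were Cnot9 (-0.69) and Pan2 (1.38). Cnot7 and Cnot8, which encode the CAF1 deadenylases that BTG1 and BTG2 bind, passed in no comparison. With stimulation 0 of the 14 were higher and 1 was lower under Compound 10 (Cnot9, -0.80), and 0 were higher and 4 lower in vehicle, namely Parn (-1.27), Pan2 (-1.61), Cnot10 (-0.71) and Cnot6 (-0.92). Of all genes, 11.0% were higher and 10.8% lower with stimulation under Compound 10, and 14.4% were higher and 13.8% lower in vehicle. The medians of the 14 for stimulation were -0.39 and -0.37, against 0.00 and -0.05 over all genes.

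The other anti-proliferative genes of the BTG/TOB family, Btg3, Tob1 and Tob2, rose with stimulation in both treatments, 3 of 3 tested (a 4th, Btg4, had no counts), where 11.0% of all genes rose under Compound 10 and 14.4% in vehicle. Btg3 had 250.6, 237 and 269.5 CPM in stimulated Compound 10 libraries, against 230.5 and 318 CPM in stimulated vehicle, and 67.7 and 65.4 CPM in unstimulated Compound 10, against 25.8 and 39.1 CPM in unstimulated vehicle. Stimulated libraries overlapped between treatments, while the unstimulated ones did not, with a log2 fold change of 1.04 (SE 0.23, adjusted p = 0.0205) at rest. Stimulation gave 1.92 under Compound 10 and 3.08 in vehicle for Btg3. In the same order the values were 0.89 and 1.29 for Tob1 and 1.00 and 1.13 for Tob2, with medians of 1.00 and 1.29 over the 3 genes. The difference between these responses passed for 0 of the 3, where 1.03% of all genes passed. It was -1.155 (SE 0.31, adjusted p = 0.102) for Btg3. For the compound in stimulated cells 0 of 3 passed, with a median of -0.12, where 23.1% of all genes passed. With 3 genes, a count of 0 is not far from that share. Both remaining Regnase genes were scarce, at under 4 CPM in every library, and only Zc3h12c passed a test, with stimulation in vehicle (1.84, adjusted p = 0.0361).

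Further steps of decay were followed in lists of genes as well, and the exosome genes called for Compound 10 were all lower. The shares of all genes called, beside which their counts stand, were 11.7% higher and 11.4% lower for Compound 10 in stimulated cells, and 4.45% higher and 2.91% lower in unstimulated cells. For stimulation they were 11.0% higher and 10.8% lower under Compound 10, and 14.4% higher and 13.8% lower in vehicle. Of 17 decapping and 5′ to 3′ decay genes, 2 were higher and 4 lower under Compound 10 in stimulated cells (median -0.16), led by Lsm3 (-1.20, adjusted p = 0.000404) and Lsm4 (1.17, adjusted p = 0.000999), whose proteins belong to the Lsm ring that binds deadenylated mRNA. In unstimulated cells 0 were higher and 1 was lower, again Lsm3 (-0.75, adjusted p = 0.0308). With stimulation 0 were higher and 2 lower under Compound 10 and 2 were higher and 2 lower in vehicle. Of 14 tested genes of the RNA exosome, the 3′ to 5′ nuclease complex, and its Ski partner, 0 were higher and 4 lower under Compound 10 in stimulated cells (median -0.47). These were Wdr61 (-0.94), Dis3, a catalytic subunit (-1.06), Exosc9 (-0.93) and Exosc3 (-0.57). In unstimulated cells 1 was lower, Exosc9 (-0.86, adjusted p = 0.0479), and with stimulation 3 were higher and 1 lower under Compound 10 and 3 higher and 2 lower in vehicle.

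Among 8 other proteins that bind AU-rich or related elements, 0 were higher and 2 lower under Compound 10 in stimulated cells, among them Pum2 (-0.77, adjusted p = 0.00742), with a median of -0.14. That count of 2 in 8 is near the 23.1% called over all genes. Elavl1, whose protein (HuR) stabilizes AU-rich mRNAs, rose with stimulation in vehicle by 0.70 (adjusted p = 0.0332), and Tia1 fell there by 1.00 (adjusted p = 0.00723). Under Compound 10 stimulation lowered Pum2 (-0.61, adjusted p = 0.0262). Of 6 kinases and protease-complex genes that act on the members, 2 were higher under Compound 10 in stimulated cells (median 0.28), where 11.7% of all genes were higher. Among them was Mapk14, the p38 kinase upstream of MK2, which phosphorylates ZFP36 (0.77, adjusted p = 0.023). Malt1, whose protease cleaves ZC3H12A, rose with stimulation by 0.66 (adjusted p = 0.0354) under Compound 10 and by 1.54 (adjusted p = 0.000358) in vehicle. Bcl10 rose by 1.09 under Compound 10 and by 0.99 in vehicle, and with stimulation 2 of the 6 rose under the compound and 4 in vehicle, where 11.0% and 14.4% of all genes rose. The difference of those counts was not tested.

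Of 15 mRNAs known as targets of the members, all 15 rose with stimulation in each treatment, where 11.0% of all genes rose under Compound 10 and 14.4% in vehicle. The median log2 fold change was 4.89 under Compound 10 and 5.97 in vehicle, or 5.23 with Il6 and Il3, which had no counts in unstimulated vehicle, set to the bound of 3 counts over the group. Under Compound 10 in stimulated cells 0 were higher and 7 lower, where 11.7% of all genes were higher and 11.4% lower. Their median was -0.75 against 0.00 over all genes. Several of these genes are also known NFAT:AP-1 targets, and no cause of their values was tested. Il2ra, the high-affinity IL-2 receptor chain, had 47.0, 33.0 and 44.6 CPM in stimulated Compound 10 libraries, against 192 and 185 CPM in stimulated vehicle. It did not overlap, at -2.18 (SE 0.21, adjusted p = 5.47e-05), and was the only target that passed for the difference between the compound's effects (-1.91, adjusted p = 0.0205), as 1.03% of all genes did. Icos, the Roquin target, had 152, 128 and 143 CPM with the compound, against 237 and 236 CPM in vehicle, a log2 fold change of -0.75 (SE 0.16, adjusted p = 0.00493). Rel, a Regnase target, also fell (-0.74, adjusted p = 0.0166). Tnf, the classic ZFP36 target, had 2049, 1687 and 2530 CPM in stimulated Compound 10 libraries, against 679 and 1368 CPM in stimulated vehicle. All compound libraries were higher, but the log2 fold change of 1.03 (SE 0.41) did not pass (adjusted p = 0.106). Nfkbid and Tnfrsf4 had values of 0.10 (adjusted p = 0.788) and -0.22 (adjusted p = 0.612). In unstimulated cells Irf4 was lower (-2.08, adjusted p = 0.0384), and Il6 passed with 0.585 and 0.221 CPM under Compound 10, against no counts in vehicle.

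The genes most like each member were sought among 4729 genes whose log2 CPM averaged 4 or more. These left out the members and predicted genes (Gm and Rik names). Likeness was Pearson's r of log2 CPM over the 9 libraries. These libraries share 4 conditions, so r mainly follows group means, and it is a description. Btg2 was closest to Med7 (0.984), a Mediator subunit, and Insl6 (0.975). Med7 had log2 fold changes for the compound of 1.505 in stimulated and -0.21 in unstimulated cells, and Insl6 had 1.51 and -0.59, beside 1.74 and -0.23 for Btg2. Zfp36 was closest to the transcription factor gene Klf10 (0.985), at 1.02 and 1.32, and to Uck2 (0.980). Zfp36l1 was closest to Yrdc (0.995) and Myc (0.993), Zfp36l2 to Sypl (0.989) and Ppif (0.979), and Zc3h12a to Nfkbiz (0.994) and Dot1l (0.993). Zc3h12d was closest to Ifi209 (0.930), Btg1 to Timm17b (0.998) and Eif1 (0.993), Rc3h1 to Rps27a (0.924) and Rc3h2 to Ets1 (0.936). Among the members themselves r was 0.951 between Zfp36l1 and Zc3h12a and 0.937 between Zfp36l2 and Btg1, and it was -0.48 between Zfp36 and Zc3h12d.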

How the data were processed

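RNA was extracted with Qiagen kits and made into libraries with Clontech SMART-seq, per the labels' protocols. The submitters' processing notes name cutadapt, kallisto and the mm10 build. Their versions, the transcript annotation and strand use were not stated in the sources used here. Estimated counts and TPM per transcript are as the authors deposited them, with effective lengths, which served here in an alternative only. Of 109617 transcripts, 108214 matched GENCODE M21 without the version of the identifier, and unmatched ones held 0.542% to 0.829% of counts.

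Estimated counts were summed per gene and rounded, filtered with filterByExpr by group, scaled by TMM and tested with edgeR 4.0.16 (quasi-likelihood, 2-sided, R 4.3.3) in 1 model of 4 groups over 9 libraries. P-values were adjusted over 14011 genes by the Benjamini-Hochberg method and called under 0.05. The SE was taken as the size of the log2 fold change over the root of its F statistic, and edgeR's biological coefficient of variation was 0.244. Depth, from 10669821 to 21852830 counts, and 2 or 3 libraries a group limit precision.

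Alternatives used limma 3.58.1, DESeq2 1.42.0, other scalings, filters, matching and libraries left out. The members and lists were chosen with earlier results of these data known. The named genes were the members, per member the 2 genes with the highest r, from each list at most the 4 with the smallest p per comparison, and any target. Subunits named beyond this (Pan2, Cnot7 and Cnot8) were chosen after their values were seen. Some list genes counted in the text are not reported here by name.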

Additional observations from a re-analysis of the deposited data

Results flagged for a closer look

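Btg2 stood out because the effect of Compound 10 differed between stimulated and unstimulated cells in a test of the difference itself. The difference was 1.97 on the log2 scale (SE 0.27, edgeR, adjusted p = 0.0062). Btg2 averaged 1180 ± 127 CPM in stimulated Compound 10 (SD, n = 3) and 352 ± 25.0 CPM in stimulated vehicle (SD, n = 2), and 205 ± 5.66 and 239.5 ± 3.58 CPM in the unstimulated groups with and without the compound (SD, n = 2 each). All 3 stimulated Compound 10 libraries were above both stimulated vehicle libraries. Both unstimulated Compound 10 libraries were below both unstimulated vehicle libraries, but the change at rest did not pass (-0.23, SE 0.20, edgeR, adjusted p = 0.548). The size of the difference between the effects stayed between 1.86 and 2.00 in the 5 alternatives in which its call was lost. No cause of the difference was tested.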

How the results depend on the processing

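Of 17 called member results, 10 passed in every alternative that gave a value, and none reversed. Members called for Compound 10 in stimulated cells numbered 1 with transcripts matched by version, which drops Zfp36, Btg1 and Zc3h12d by construction, and 2 to 4 without 1 library at a time. In unstimulated cells they numbered 4 in DESeq2, 1 in limma on log2(TPM + 1) and on log2(TPM + 0.1), 0 by version, 1 without the vehicle libraries richest in ribosomal RNA, and 1 to 3 without 1 library. For stimulation they numbered 3 by version under Compound 10 and in vehicle, 3 in both limma fits under Compound 10, and 4 to 6 under Compound 10 and 5 to 7 in vehicle without 1 library. For the difference of effects they numbered 2 without a filter and in DESeq2, 0 in both limma fits, by version and without the ribosomal-RNA-rich vehicle libraries, and 0 to 1 without 1 library. The causes were not tested.

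Calls lost in limma (log2(TPM + 1) first, then log2(TPM + 0.1)) were Zc3h12d for the compound at rest (-0.86 and -1.30), Btg1 for stimulation in vehicle (0.96 and 0.96), Zfp36 (0.77 and 0.78), Zfp36l2 (0.75 and 0.76) and Btg1 (0.41 and 0.41) for stimulation under Compound 10, and Btg2 for the difference of effects (1.86 and 1.87). Zc3h12d lost its call for stimulation in vehicle with 0.1 only (-1.14), and without a filter (-0.88).

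Values that changed sign were short of the threshold in every case but 1, Rc3h2 for the compound in stimulated cells with the effective-length offset. For the compound in stimulated cells, Rc3h1 was 0.021 with upper-quartile scaling and 0.092 without the ribosomal-RNA-rich libraries, and Zfp36l2 was -0.067 without them. Rc3h2 there was -0.71 with the offset, -0.54 and -0.75 in limma, -0.90 by version and -0.075 with the replicate block. In unstimulated cells Rc3h1 was -0.27 with the offset, -0.17 and -0.18 in limma and -0.58 by version. Rc3h2 there was 0.32 without the ribosomal-RNA-rich libraries, and 0.0024 and 0.0044 with the replicate block and the crossed block among the unstimulated groups alone. For stimulation, Rc3h1 in limma was -0.17 and -0.19 under Compound 10 and -0.19 and -0.21 in vehicle, and Rc3h2 was 0.21 in vehicle with the offset. For the difference of effects, Zc3h12a was -0.14 without the ribosomal-RNA-rich libraries, and Rc3h1 was 0.20 with the offset, 0.022 and 0.022 in limma and 0.48 by version. Rc3h2 was -0.54 with the offset, -0.45 and -0.63 in limma, -0.88 by version, -0.057 with the replicate block and -0.047 without the ribosomal-RNA-rich libraries. Without 1 library at a time, the compound's value in stimulated cells ranged from -0.067 to 0.77 for Zfp36l2, -0.26 to 0.10 for Rc3h1 and -0.17 to 0.27 for Rc3h2. In unstimulated cells it ranged from -0.041 to 0.42 for Zc3h12a, -0.24 to 0.38 for Rc3h1 and -0.33 to 0.32 for Rc3h2. Stimulation in vehicle ranged from -0.52 to 0.13 for Rc3h2, and the difference of effects from -0.45 to 0.17 for Rc3h1 and -0.28 to 0.36 for Rc3h2.

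Over all genes, calls for Compound 10 in stimulated cells were 3234, against 1195 and 1263 in limma, 576 by version, 1861 without the ribosomal-RNA-rich libraries and 2014 without replicate 2 of stimulated vehicle. In unstimulated cells 1031 became 1569 without a filter, 231 and 177 in limma and 56 by version. Fewer than 1031 were also called there without both ribosomal-RNA-rich vehicle libraries, and without any 1 of the 4 unstimulated libraries. Those fits leave 1 library in a group. For stimulation under Compound 10, 3052 became 822 by version and 1656 and 1535 without replicate 1 or 2 of unstimulated Compound 10. In vehicle 3940 became 2541 in limma with 0.1, 1217 by version, 1606 without both ribosomal-RNA-rich libraries and 2466 without replicate 2 of unstimulated vehicle. For the difference of effects 144 became 512 without a filter, 454 in DESeq2, 84 with the offset, 22 and 17 in limma, 0 by version, 13 without the ribosomal-RNA-rich libraries and 28 to 260 without 1 library. In limma on log2(TPM + 1) the median of all genes moved to -0.21 for stimulation under Compound 10 and -0.17 in vehicle, with 595 higher and 1745 lower, and 978 higher and 1672 lower. Without both ribosomal-RNA-rich libraries 1040 were higher and 566 lower in vehicle, against 2011 and 1929 with all libraries. Upper-quartile scaling moved the median of all genes to 0.12 for the difference of effects.

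The labels do not say that replicate numbers pair samples. Differences between replicates 1 and 2 correlated across 4874 genes at -0.162 between the unstimulated groups and -0.042 between the stimulated ones, at 0.555 between the Compound 10 groups and 0.64 between the vehicle groups. Libraries of the same number thus went together within a treatment and not between treatments. The main model, its stimulation tests included, uses no such link. The replicate block has a term per number over all groups, so it also ties vehicle to Compound 10 libraries. A link within each treatment alone was not fitted. With the replicate block, in which replicate 3 of stimulated Compound 10 stands alone, members called numbered 2 and 3 for the compound in stimulated and unstimulated cells, 5 and 6 for stimulation under Compound 10 and in vehicle, and 1 for the difference. Btg1 lost its call for stimulation under Compound 10 (0.82, adjusted p = 0.0587), Zfp36l2 gained one for the compound at rest (adjusted p = 0.0155), and over all genes 43 were called for the difference. The block and a crossed block among the unstimulated groups alone, both added after seeing the data, gave 942 and 1818 genes, with Zfp36l2 called in each (1.22, adjusted p = 0.00844 and 0.00437).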

Other observations

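The transcript forms behind the gene sums differed in how evenly they were used, and are given as percent of a gene's estimated counts without a test. Zfp36 had a single transcript in the tables, 1792 bases long there and 2790 in GENCODE M21. Zfp36l1-201 took 62.7 ± 14.7% in stimulated Compound 10 (SD, n = 3) and 70.1 ± 4.90% in stimulated vehicle cells (SD, n = 2), and 70.6% and 53.6% in the unstimulated Compound 10 libraries, against 62.1% and 65.9% in unstimulated vehicle. The form of Rc3h2 with a retained intron, Rc3h2-206, took 0.489%, 7.36% and 3.01% in stimulated Compound 10 libraries, against 3.38% and 3.96% in stimulated vehicle. It took 9.71% and 5.83% in unstimulated Compound 10, against 11.5% and 5.10% in unstimulated vehicle. Stimulated and unstimulated libraries overlapped under Compound 10, where 1 stimulated library was above an unstimulated one. The retained-intron form of Zc3h12a, Zc3h12a-202, took 0.698%, 1.045% and 0.279% in stimulated Compound 10 libraries, against 0% and 0.4998% in stimulated vehicle. It took 1.09% and 2.32% in unstimulated Compound 10, against 1.845% and 3.43% in unstimulated vehicle. Zc3h12a had 168 to 281 estimated counts in unstimulated and 1403 to 2016 in stimulated libraries, and Rc3h2 had 213 to 386 in all. The retained-intron shares thus rest on few counts, and for Zc3h12a on very different gene totals, so they do not show a fall of the form itself.

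Near copies of the members held few counts. Zfp36l1-ps had at most 8.17 counts, Btg1-ps2 at most 3 and Btg1-ps1 none. The antisense gene Gm26669 overlaps 1672 bases of Zfp36l1 exons and had 7.47 to 72.0 counts, against at least 2427 for Zfp36l1. Without strand, reads of these overlapping genes cannot be told apart.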
